A study of Mus musculus with 12 samples.

Results

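The contacts of the Hoxb1 promoter were examined in mouse embryonic stem cells (ESCs) with CaptureC, a method that fixes chromatin, ligates fragments that lie close together and enriches ligation products of selected promoter fragments, called baits. Members were all interactions in the deposited table whose bait has the position that the bait list gives for Hoxb1, 34 of 842 interactions. Of these 34 contacts, 12 overlapped a site where RING1B and PCGF2 both bind (a PCGF2 site) and 22 did not (other sites). The 24 named baits had 414 interactions in all.

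There were 4 groups with 3 replicates each, 12 samples in all, from ESCs of strain E14. PRC1CPM cells, which are 1 clone, carry Ring1aI50A/D53K alleles, Ring1b fl/fl alleles that Cre switches from wild type to I53A/D56K, and ERT2-Cre at Rosa26, so both of their groups lack catalytic RING1A. They were left untreated or were given 4-hydroxytamoxifen (OHT) at 800 nM over 72 h, which activates Cre and leaves only catalytically inactive RING1B. PRC1DEG cells (Tir1; Ring1a-/-; Ring1bAID) carry RING1B fused to a degron that the plant receptor TIR1 recognises, and received 0.5 mM auxin for 6 h. The Control line (Tir1) has the receptor and intact Ring1a and Ring1b without a degron, and received the same auxin treatment. PRC1DEG and Control therefore differ in Ring1a as well as in the degradation of RING1B. The auxin libraries came from a separate, earlier capture experiment, so their levels were not set against those of PRC1CPM cells. The table holds 1 value per group, pooled over its 3 replicates, and how far replicates differ from each other is not known.

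Hox genes encode homeodomain transcription factors that pattern the body axis, and within the HoxB cluster they lie in a row from Hoxb13 and Hoxb9 at one end to Hoxb1 at the other. Hoxb1 is known for its role in the hindbrain and is the first of the cluster to be switched on in development. In ESCs the cluster is a classical target of Polycomb repressive complexes. PRC1 ubiquitylates histone H2A through RING1A or RING1B. Its canonical form, which contains PCGF2, reads H3K27me3 through CBX proteins and is known to bring Polycomb target sites together in the nucleus.

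The Hoxb1 bait was a DpnII fragment of 997 bases at chr11:96365701-96366697 (GRCm38). It held the transcription start site (TSS), the first exon and part of the intron of Hoxb1. Of the PCGF2-site contacts, 9 of 12 lay on one side of it. The Hoxb4 contact was nearest, 46.7 kb away, and was followed by Hoxb5, Hoxb6, the Hoxb8 and Hoxb9 region and, at 165 to 193 kb, 3 contacts at or near Hoxb13. The remaining PCGF2-site contacts lay on the opposite side, among them 1 that was 659 kb away near the end of Sp6 and 1 near Cbx8, at 22.7 Mb. All 22 other-site contacts lay on this opposite side, 21 of them at 150 to 634 kb and the last at 22.7 Mb. Of the 21, 14 lay over Skap1, a gene for an immune cell adaptor protein. Thus whether a contact reached a PCGF2 site largely went together with its side and its distance. No contact lay over Hoxb2 or Hoxb3, which separate the bait from Hoxb4, and the table lists none nearer than 46.7 kb.

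Polycomb sites in ESCs are usually rich in CpG dinucleotides. Across the 12 PCGF2-site contacts the median was 2.50 CpGs per 100 bases (0.90 to 7.88), against 1.32 (0.64 to 4.40) at the 22 other sites, with a median GC content of 51.2% and 44.2%. Stretches of the bait promoter and of contacts on which the results turn are printed 5′ to 3′ with each CpG in capitals. The 2 promoters come from RefSeq (GRCm38) and hold the bases before the TSS. The other 3 stretches are the 150 bases in the middle of the summit fragment. The Hoxb1 stretch (chr11:96365508-96365751) had 7 CpGs. That of Hoxb8 (chr11:96281655-96281904) had 12 and lies inside the contact with the most reads at a PCGF2 site. The Hoxb4 stretch (chr11:96319396-96319545, intron) had 4 and that of the Hoxb13 contact (chr11:96189594-96189743, intergenic) 2. The Skap1 stretch (chr11:96540766-96540915, intron), from the contact with the most reads of all, had 1. The last 3 are on the plus strand, as are both genes of the promoters.
Hoxb1 promoter: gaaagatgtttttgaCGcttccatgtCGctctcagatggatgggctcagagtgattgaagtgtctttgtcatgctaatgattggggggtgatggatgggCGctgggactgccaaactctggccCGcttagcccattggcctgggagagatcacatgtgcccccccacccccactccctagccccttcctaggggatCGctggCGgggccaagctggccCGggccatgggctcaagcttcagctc
Hoxb8 promoter: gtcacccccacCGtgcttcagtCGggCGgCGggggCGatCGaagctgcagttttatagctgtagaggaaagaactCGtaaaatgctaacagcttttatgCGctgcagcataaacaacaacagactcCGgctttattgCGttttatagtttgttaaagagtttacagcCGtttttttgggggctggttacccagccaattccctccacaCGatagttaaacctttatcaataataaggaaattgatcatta
Hoxb4 contact: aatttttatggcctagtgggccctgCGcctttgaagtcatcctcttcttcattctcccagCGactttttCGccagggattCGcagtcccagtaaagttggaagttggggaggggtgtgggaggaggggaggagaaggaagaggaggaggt
Hoxb13 contact: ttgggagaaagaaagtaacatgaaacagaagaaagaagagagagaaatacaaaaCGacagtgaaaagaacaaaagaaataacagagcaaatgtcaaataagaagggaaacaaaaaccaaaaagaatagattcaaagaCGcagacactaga
Skap1 contact: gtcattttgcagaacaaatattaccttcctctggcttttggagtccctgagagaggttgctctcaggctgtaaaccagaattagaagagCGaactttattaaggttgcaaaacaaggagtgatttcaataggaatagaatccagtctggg

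Values are given below as weighted reads, the read number left after the authors' normalization was undone, with the 4 libraries always in the order untreated, OHT, Control, PRC1DEG, and changes as log2 ratios of the normalized read count per fragment. A change was called where an exact binomial test of the reads of both pooled libraries passed an adjusted p of 0.05 over all 842 interactions. This test compares libraries, not conditions. Intervals are 95% Wilson intervals and cover counting error only. Both the tests and the intervals take weighted reads as plain counts. They thus depend on how the replicates were merged, which is not known here.

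Contacts with PCGF2 sites were lower after loss of PRC1 catalysis and after loss of RING1B, but a large part of the normalized read count remained. This count was not corrected for the reads expected at a contact's distance. It therefore does not measure how much contact between Polycomb sites remained. Summed over the 12 contacts, the normalized read count after OHT was 63.8% of that in untreated cells (2361 and 4043 weighted reads). In PRC1DEG cells it was 56.3% of that in Control cells (1824 and 3028 reads). Medians of the log2 change were -0.61 for OHT and -0.86 for PRC1DEG. The count was lower at 11 of 12 contacts after OHT, where 73.8% of all 842 interactions were lower, and at 12 of 12 in PRC1DEG cells, where 50.2% of all interactions were lower. After OHT 8 contacts were called lower, against 9.03% of all interactions. In PRC1DEG cells 7 were called lower, against 9.86%. Such calls depend on depth, and these 12 contacts held more reads than most. Their median was 137 reads in untreated cells and 97.5 in Control, against 20 and 16 over all interactions. At the distances of the 9 contacts on the HoxB side, 14 of 19 PCGF2-site contacts of the other named baits were called lower in each system. Of the 9 themselves, 8 were called after OHT and 5 in PRC1DEG cells. None of the 12 was called higher.

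**Figure D1:**
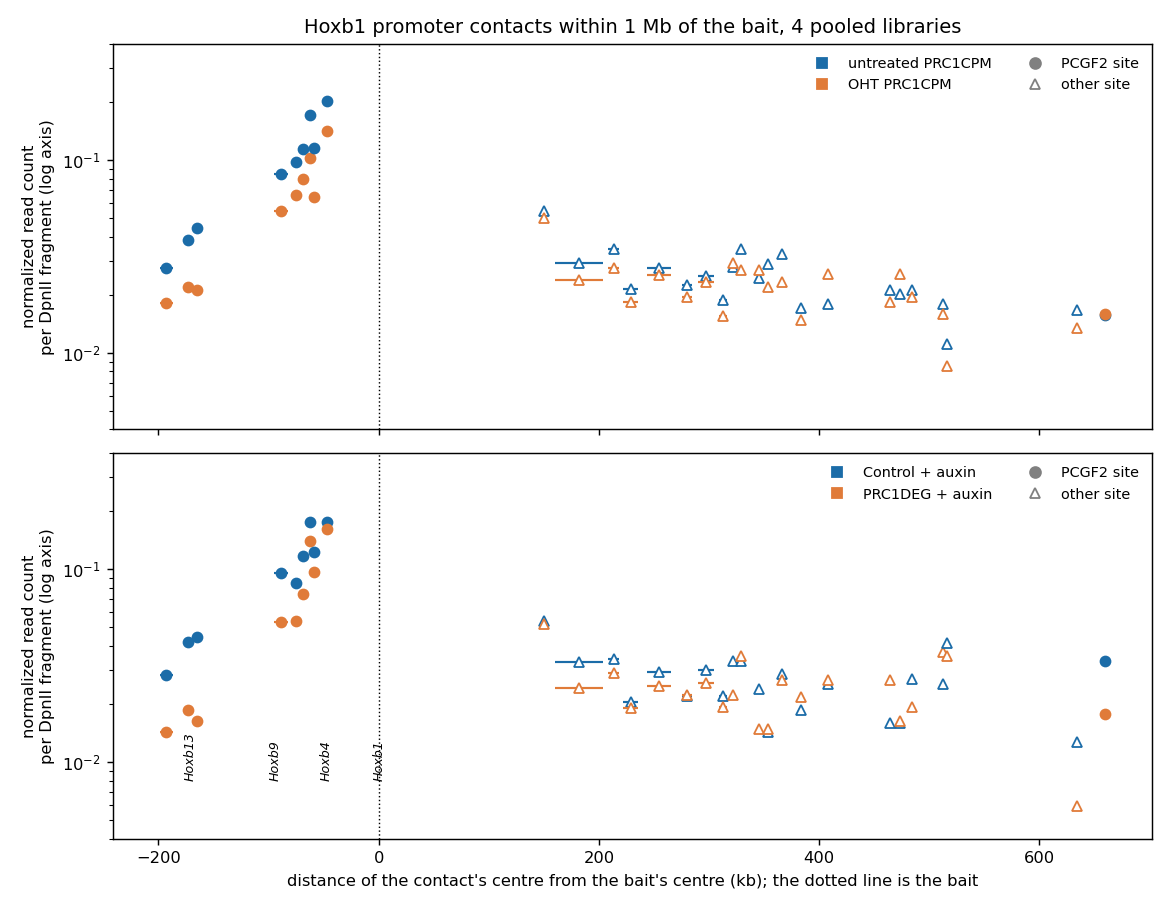
Normalized read count per DpnII fragment (log axis) of the Hoxb1 contacts within 1 Mb, by distance from the bait in kb, in PRC1CPM cells (top) and in the auxin libraries (bottom). Horizontal lines give the width of a contact, and gene names mark start sites. The 9 PCGF2-site contacts on the HoxB side lie lower in the treated library in both panels, with the nearest 3 close together in the auxin libraries.

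Within the HoxB cluster, the Hoxb4 contact was a single fragment over coding sequence and intron of Hoxb4 (chr11:96318790-96320153). It held 182, 116, 111 and 109 weighted reads in the 4 libraries. Its level was thus lower after OHT, and the Control and PRC1DEG libraries were nearly alike. With OHT the log2 change was -0.52 (interval -0.86 to -0.19, adjusted p = 0.0298 by the exact binomial test). Between Control and PRC1DEG it was -0.12 (interval -0.50 to 0.26). The table lists fragments with an interaction score of at least 5 in some library (scores are described below). This fragment passed in the untreated library alone, with scores of 8.53, 3.59, 3.48 and 4.22. Its listing thus favours a fall after OHT, and the OHT test is not independent of it.

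Hoxb5 is itself a bait of this capture, and 2 contacts lay within 5 kb of it. The contact over Hoxb5 coding sequence (chr11:96303770-96304264) held 154, 84, 111 and 94 reads. The contact beyond its 3′ end (chr11:96306949-96307538) held 103, 53, 77 and 65. Both were called lower after OHT, with log2 changes of -0.74 (interval -1.13 to -0.36) and -0.83 (interval -1.31 to -0.35). In PRC1DEG cells the change was -0.34 at both, with intervals that included 0 (-0.73 to 0.06 and -0.82 to 0.13).

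The Hoxb6 region was reached at 2 places. The contact that runs from the end of Hoxb7 over the Hoxb6 TSS (chr11:96289522-96293278, 6 fragments) held 524, 322, 319 and 217 reads. It was called lower in both systems, by similar amounts (-0.57, interval -0.77 to -0.37, and -0.65, interval -0.90 to -0.41). A fragment in a Hoxb6 intron (chr11:96296803-96297397) held 102, 65, 74 and 50 reads. Its changes of -0.52 and -0.66 were of the same size but were not called, with adjusted p of 0.204 and 0.101 by the exact binomial test.

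The contact over the start sites of Hoxb9 and Hoxb8 (chr11:96270684-96284265, 23 fragments) carried the most reads of any PCGF2-site contact. It held 1736, 1025, 1384 and 830 reads. The change with OHT was -0.63 (interval -0.74 to -0.52) and that between Control and PRC1DEG was -0.83 (interval -0.96 to -0.71). Of the 12 it had the narrowest intervals.

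Hoxb13 lies apart from the rest of the cluster, and 3 contacts lay at or near it. The contact with the Hoxb13 TSS inside (chr11:96189333-96195850, 12 fragments) held 414, 217, 316 and 150 reads. A wider one over the non-coding gene Gm11535 (chr11:96167765-96179191, 26 fragments, 15.1 kb from the Hoxb13 TSS) held 639, 387, 464 and 250 reads. An intergenic one on the other side of Hoxb13 (chr11:96200653-96202096) held 120, 52, 84 and 33 reads. All 3 were called lower in both systems. Their changes ran from -1.07 to -0.59 after OHT and from -1.43 to -0.97 in PRC1DEG cells, and each was 0.36 to 0.39 lower in PRC1DEG cells than after OHT.

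**Figure D2:**
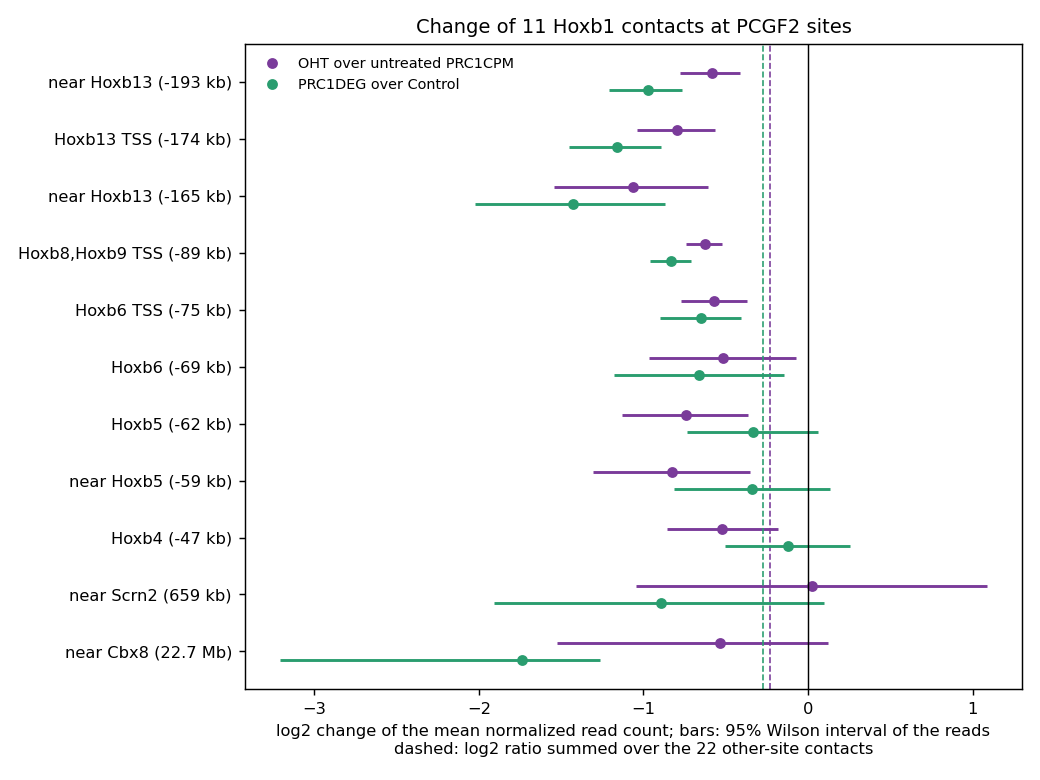
Log2 change of the mean normalized read count (x axis) for 11 of the 12 Hoxb1 contacts at PCGF2 sites, named by gene and distance from the bait. Bars are 95% Wilson intervals of the reads and dashed lines the summed change of the 22 other-site contacts. The contacts at Hoxb5 and Hoxb4 lie further left after OHT than in PRC1DEG cells, whereas those at Hoxb13 and near Cbx8 lie further left in PRC1DEG cells.

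In the listed values the 2 systems thus ordered the contacts along the cluster differently. For the nearest 3 contacts (Hoxb4 and the 2 at Hoxb5), the summed count was 63.0% after OHT and 83.7% in PRC1DEG cells. The change in PRC1DEG cells minus that after OHT was 0.41 on the log2 scale (95% counting interval 0.08 to 0.74). For the 3 contacts at Hoxb13 the sums were 61.1% and 46.8%, and the same difference was -0.38 (interval -0.60 to -0.17). Set against each other, the nearest 3 and the Hoxb13 contacts differed by 0.04 with OHT (interval -0.22 to 0.31) and by 0.84 in the PRC1DEG library (interval 0.55 to 1.13). The nearest 3 were grouped after their values had been seen, so that these differences describe the pooled libraries. They were single fragments with 53 to 182 reads, and cell line, treatment time and capture experiment differ between the systems as well. The Hoxb4 fragment and the one beyond Hoxb5 reached a score of 5 in the untreated library alone (8.53 and 5.49). The fragment over Hoxb5 coding sequence reached it with OHT alone (5.13). Listing through a high untreated value favours a fall after OHT but not in PRC1DEG cells. Its share in these differences was not tested.

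Far from the cluster, a contact lay 2.26 kb from the TSS of Cbx8, which encodes a chromodomain subunit of canonical PRC1 (chr11:119043225-119054411, 25 fragments). It held 32, 18, 44 and 10 reads. It was called lower in PRC1DEG cells, at 21.2% of the normalized count in Control (adjusted p = 1.1e-05 by the exact binomial test), and was not called after OHT, at 61.5% of the untreated count. Its summit scores were 0, 0, 8.17 and 0, so it was listed through the Control library. A fall from Control was thus favoured by the listing. The call, and its contrast with OHT, are not independent of it. Because the pseudocount is not small against so few reads per fragment, its log2 change in PRC1DEG cells, -1.74, understates the fall to 21.2%. The contact near the end of Sp6, a transcription factor gene, lay 3.99 kb from the Scrn2 TSS (chr11:97025089-97025948) and held 14, 13, 21 and 12 reads, and its intervals included 0 in both systems.

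Contacts with other sites were reduced less. Over the 22 of them the summed count was 85.0% after OHT (4810 and 6184 reads) and 82.7% in PRC1DEG cells (4168 and 4710 reads), with median log2 changes of -0.21 and -0.15. After OHT 2 were called lower and in PRC1DEG cells 2, near the share in the whole table. The contact with the most reads (chr11:96526332-96569869, 101 fragments in Skap1) was called in both, with 2649, 1978, 2092 and 1647 reads. Its changes were -0.29 (interval -0.38 to -0.21) and -0.44 (interval -0.54 to -0.35). A neighbouring Skap1 contact (chr11:96574828-96584304) was called after OHT alone (555, 406, 387 and 352 reads) and another (chr11:96609911-96631400) in PRC1DEG cells alone (841, 702, 628 and 567 reads). The next 3 by reads, also in Skap1, held 613, 483, 412 and 413 reads (chr11:96588276-96602050), 496, 419, 417 and 383 reads (chr11:96656563-96670671) and 344, 272, 236 and 254 reads (chr11:96642066-96650355). None of these was called in either system.

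PCGF2-site contacts changed more than other-site contacts of the same bait. The summed log2 change differed by -0.41 with OHT (interval -0.50 to -0.32) and by -0.55 in the PRC1DEG library (interval -0.66 to -0.45). Accordingly the share of the listed Hoxb1 reads that lay at PCGF2 sites was 39.5% in untreated cells (Wilson interval 38.6 to 40.5) and 32.9% after OHT (31.8 to 34.02). It was 39.1% in Control (38.0 to 40.2) and 30.4% in PRC1DEG cells (29.3 to 31.6). This share does not depend on the normalization between libraries. By the same measure the nearest 3 contacts were lower than other sites after OHT by -0.43 (interval -0.66 to -0.20), but differed from them by only 0.02 in PRC1DEG cells (interval -0.23 to 0.26). The limit given above on how these 3 came to be listed applies here too.

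Distance could be matched on the 2 sides of the bait. The 3 Hoxb13 contacts lay at 165 to 193 kb, and 2 Skap1 contacts at 150 and 182 kb on the other side. In untreated cells these held 28.6 and 26.5 reads per fragment, and in Control cells 21.1 and 20.8. After OHT the values were 16.0 on the Hoxb13 side and 19.8 on the Skap1 side, and in PRC1DEG cells 10.6 and 16.5. The levels in the reference libraries were thus close, and the Hoxb13 side was lower in both treated libraries. The log2 change on the Hoxb13 side minus that on the Skap1 side was -0.42 for OHT (interval -0.58 to -0.26) and -0.66 for PRC1DEG (interval -0.85 to -0.47). The sides may have been listed through different libraries. At Hoxb13, 2 summits scored at least 5 in untreated cells alone (8.60 and 6.47). The Skap1 summit at 182 kb did so with OHT alone (6.61), and that at 150 kb in untreated cells alone (5.33). None passed in an auxin library. How far this shifts the OHT difference was not tested.

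Interaction scores gave a second readout. A CHiCAGO score weighs the reads of a fragment against those expected at its distance, and a contact was taken as called in a library when its summit fragment scored at least 5. At PCGF2 sites 6 of 12 contacts were called in untreated cells, where 58.8% of all interactions were called, and 1 after OHT (the contact over Hoxb5 coding sequence), against 33.6%. That contact was not among the 6. Its summit score was 3.77 in untreated cells and 5.13 after OHT, although its reads were called lower (154 and 84). In Control cells 2 were called (near Sp6 and near Cbx8), against 20.1%, and in PRC1DEG cells 0, against 17.9%. At other sites 12, 10, 3 and 2 of 22 were called in the 4 libraries. The difference between untreated and OHT at PCGF2 sites depended on the threshold, since with a summit score of at least 3 the calls were 8 and 6. The median of the mean score per fragment at PCGF2 sites was 3.84, 2.29, 2.31 and 1.06 in the same order, and at other sites 3.83, 3.16, 1.16 and 0.777. Other-site contacts called in both libraries of a system were 4. With summit scores of 7.55 and 5.77 (chr11:96574828-96584304), 7.15 and 5.52 (chr11:96609911-96631400) and 7.41 and 6.46 (chr11:96675651-96682242, with 252, 191, 208 and 194 reads), 3 in Skap1 were called before and after OHT. The last of these was also called in Control (5.79). A fragment nearest to Copz2 (chr11:96881025-96882744, with 10, 7, 26 and 24 reads) scored 5.81 in Control and 5.08 in PRC1DEG cells. No contact was tested between libraries by its score.

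**Figure D3:**
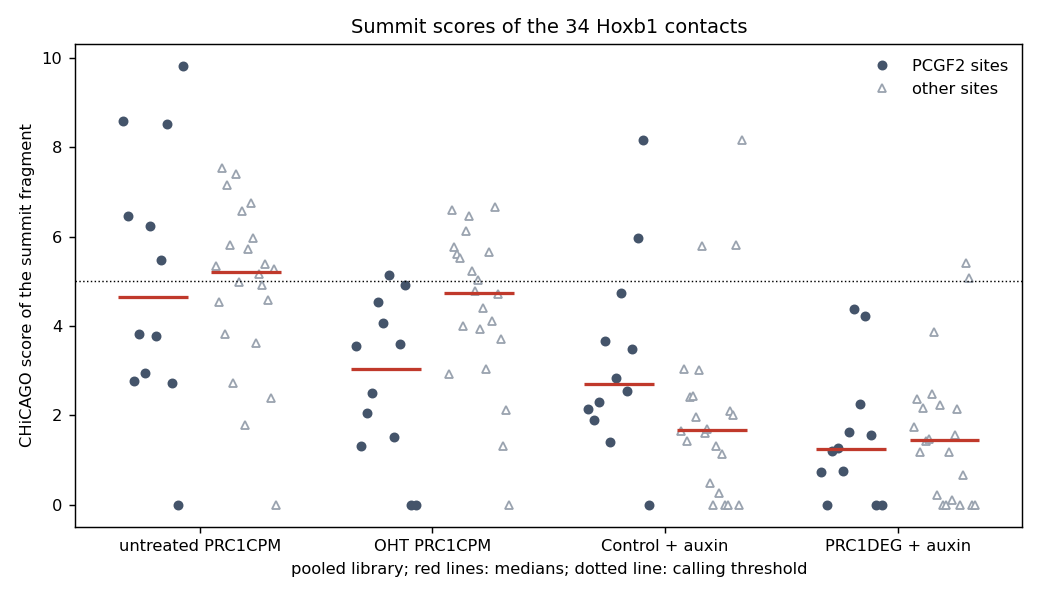
CHiCAGO score of the summit fragment (y axis) for the 12 PCGF2-site and 22 other-site contacts of Hoxb1 in the 4 pooled libraries. Red lines are medians and the dotted line is the threshold of 5, which 6 PCGF2-site contacts pass before OHT, against 1 with OHT, 2 for Control and 0 for PRC1DEG. The 1 that passes with OHT is not among the 6 before it.

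The table was built from fragments that scored at least 5 in some library, so a high value in a reference library could bring a contact into the list. Which library did so cannot be read fully from the summits, since 3 of the 12 PCGF2-site contacts had a summit called in none. Of the 12, 7 had a summit called only in PRC1CPM libraries, which also means that neither auxin library reached the threshold there. In PRC1DEG cells all 7 were lower than in Control, with a summed count of 57.4% and a median change of -0.66. The 2 called only in auxin libraries held 46 reads in untreated cells and 31 with OHT, 73.7% of the normalized count, and 1 of them was lower. For the 18 other-site contacts called only in PRC1CPM libraries the sum in PRC1DEG cells was 82.3% and 11 were lower. Of all 842 interactions, 50.2% were lower in PRC1DEG cells and 73.8% after OHT.

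Hoxb2, Hoxb3 and Hoxb5 were baits as well, in the same normalization set as Hoxb1, and their contacts were set beside those of Hoxb1. In PRC1DEG cells the count summed over PCGF2 sites was 56.3% for Hoxb1, 38.7% for Hoxb2, 35.9% for Hoxb3 and 29.8% for Hoxb5. After OHT the same sums were 63.8%, 59.2%, 60.1% and 60.9%. The bait at the end of the cluster thus stood above its neighbours mainly in PRC1DEG cells. Its other sites stood below them, with 82.7% in PRC1DEG cells against 101%, 105% and 108%. At matched distances, the 9 cluster-side contacts of Hoxb1 exceeded the 10 PCGF2-site contacts of the 3 other baits by 0.68 on the log2 scale in PRC1DEG cells (interval 0.59 to 0.78) and by 0.11 after OHT (interval 0.02 to 0.19). With each bait set against its own other sites, these differences were 1.04 (interval 0.91 to 1.17) and 0.33 (interval 0.22 to 0.44). The matched contacts are not the same fragments, and 3 neighbouring baits share much of their surroundings.

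**Figure D4:**
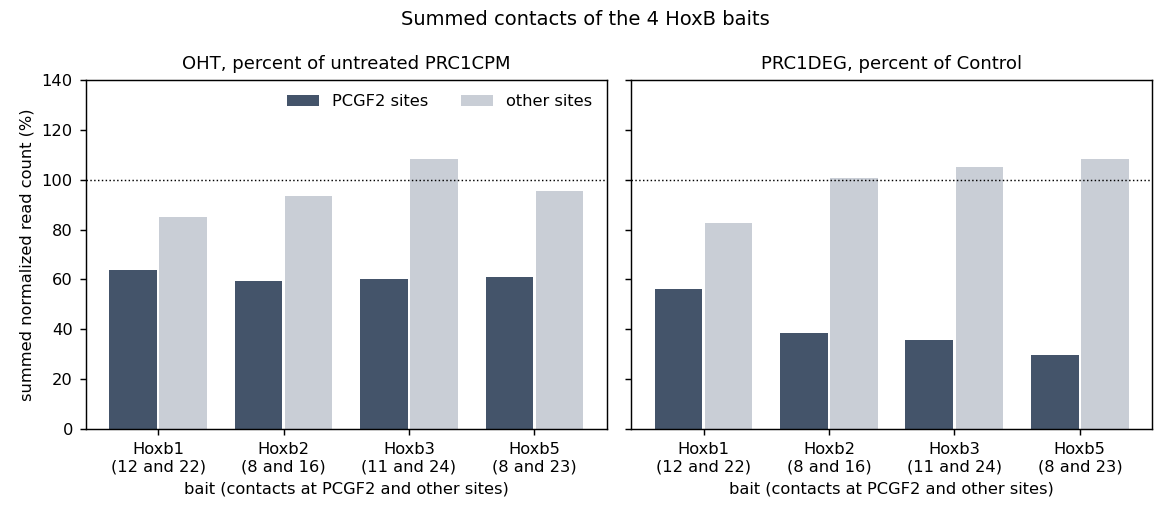
Normalized read count summed over the contacts of each HoxB bait at PCGF2 sites (dark) and other sites (light), as a percentage of the reference library. The numbers under each bait count its contacts at PCGF2 and other sites. In PRC1DEG cells the PCGF2-site bar of Hoxb1 stands at 56.3% and the others at 29.8 to 38.7%.

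The Hoxb4 fragment was listed for 3 baits and allows the same fragment to be compared. From the Hoxb3 bait it held 335, 232, 249 and 168 reads, and from the Hoxb2 bait 190, 125, 127 and 83. Its log2 change in PRC1DEG cells was -0.67 and -0.71 from these baits, against -0.12 from Hoxb1. The differences were 0.54 (interval 0.07 to 1.02) and 0.59 (interval 0.04 to 1.14). By Fisher's exact test on the reads neither passed adjustment over the 24 comparisons of 12 shared pairs (p = 0.0288 and 0.0417, adjusted p = 0.478 for both), and none of the other 22 did. After OHT the 3 values were -0.52, -0.40 and -0.47.

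At the other cluster contacts the Hoxb2 and Hoxb3 baits reached wider regions. The region of 75 fragments that the Hoxb3 bait contacted from Hoxb9 to Hoxb5 changed by -0.73 with OHT (interval -0.79 to -0.68) and by -1.42 in the PRC1DEG library (interval -1.49 to -1.37). Over Hoxb9 and Hoxb8 alone the Hoxb1 contact had changed by -0.63 and -0.83. The Hoxb3 region that holds Hoxb13 changed by -0.80 and -1.77, and the one over the Gm11535 contact by -0.74 and -1.68.

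Among the 16 named baits with at least 3 PCGF2-site contacts, the median change for Hoxb1 was the smallest in PRC1DEG cells and, after Eomes, the second smallest after OHT. Baits with fewer such contacts were not ranked. In PRC1DEG cells Islr2 (-0.13), Hcrtr1 (-0.28), Gata5 (-0.38), Igfbp5 (-0.82) and Ctdspl (-0.84) among them had smaller changes than Hoxb1 (-0.86). Only Fgf9 (-3.77) had a larger one. By summed count in PRC1DEG cells, Hoxb1 (56.3%) and Pax7 (55.5%) were nearly level. The baits with the nearest pair of medians were Pax7 (-0.97 after OHT and -0.90 in PRC1DEG cells), Hoxb2 (-0.76 and -1.44) and Hoxb5 (-0.63 and -1.68). The distances from Hoxb1 in these 2 medians were 0.367, 0.600 and 0.813. Pax7 encodes a paired-type homeodomain factor, and its 4 contacts held only 64 reads in Control. At the distances of the 9 cluster-side contacts, the 19 PCGF2-site contacts of all other named baits summed to 55.5% after OHT and 31.9% in PRC1DEG cells, against 63.8% and 57.1% for Hoxb1.

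**Figure D5:**
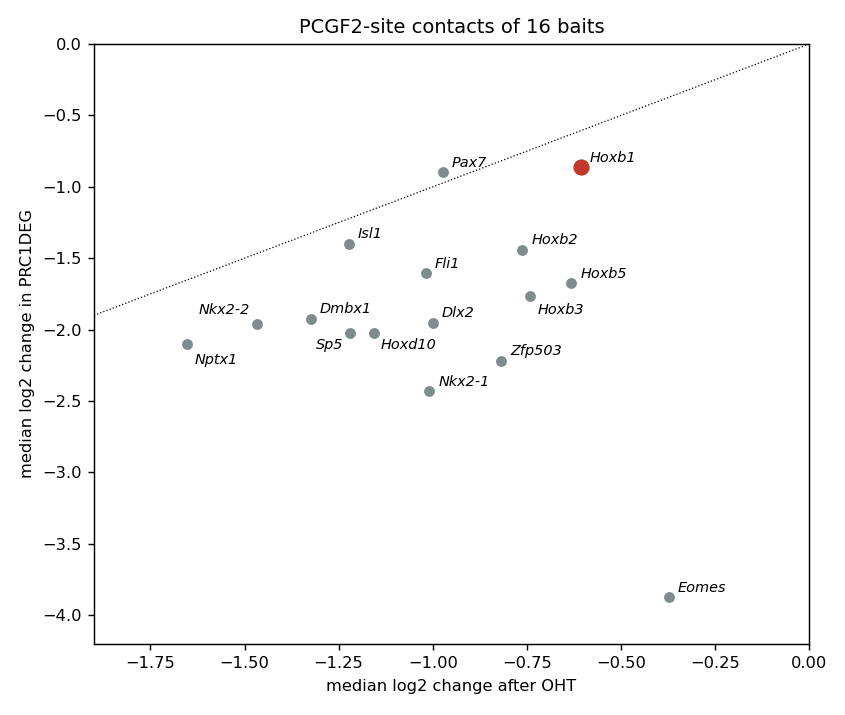
Median log2 change of PCGF2-site contacts after OHT (x axis) and in PRC1DEG cells (y axis) for the 16 named baits with at least 3 such contacts. On the dotted line both medians are equal, and Hoxb1 (red) lies highest, at -0.61 and -0.86.

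Of 14 genes listed as neighbours of the cluster, 3 were overlapped by a Hoxb1 contact, none of them at a PCGF2 site. These were Skap1 (14 contacts), Snx11 (1 contact, 16, 21, 16 and 18 reads in the 4 libraries) and Copz2 (1 contact, 19, 16, 17 and 13 reads). SNX11 is a sorting nexin and COPZ2 a coatomer subunit.

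The value of 1 weighted read was shared by all baits of a set, so a difference between libraries in the total reads of the Hoxb1 bait would shift all of its contacts alike. That total is not part of the values analysed here, and its part in the 82.7% at other sites was not tested.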

How the data were processed

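Per the study's methods, the authors filtered CaptureC read pairs with HiCUP and Bowtie2 against mm10. Weighted reads and CHiCAGO scores came from merged replicates. Fragments scoring at least 5 in any sample were pooled, and those within 10 DpnII fragments were merged. The deposited signal values are weighted reads normalized by the authors to promoter number and to reads at captured promoters. The deposited score values are summed CHiCAGO scores, with the summit's beside them. Summed reads and scores were divided here by the number of fragments, and the 4 columns of reads at the summit fragment were not used. In 100% of values the signal was a whole number of reads (tolerance 0.1), with a step that the Hoxb1 bait shared with 19 baits in all in the auxin libraries. Changes are log2 ratios with a pseudocount of 0.00035, the smallest mean above 0. Two-sided exact binomial tests ran over all 842 interactions with Benjamini-Hochberg adjustment. Intervals of differences between summed changes are normal intervals of the log ratio of reads. How replicates were weighted in merging is not given in the sources used here. Reads carry no molecular identifiers.

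Baits and oligonucleotides matched GRCm38 (48 of 48), and genes are GENCODE M21 basic. For 2 of 34 contacts the listed summit lay just outside the contact. Named were all PCGF2-site contacts but 1, which is counted in the sums and not reported here, the 6 other-site contacts with the most reads, other-site contacts called in both libraries of a system, and the 3 baits nearest in the pair of medians. Members and lists were chosen with earlier results of these data known. The binomial calls were checked on simulated reads. Replicates were pooled in the table, so replicate values were not analysed here. Scripts used python 3.11.15, numpy 2.4.6, pandas 2.3.3 and scipy 1.17.1.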

Additional observations from a re-analysis of the deposited data

How the results depend on the processing

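All 40 alternative values of the median changes moved by less than the counting error of a contact, and no called value changed sign. At other sites this error (0.81 after OHT, 0.86 in PRC1DEG cells) exceeded the medians themselves. The same held for the PRC1DEG change minus the OHT change at PCGF2 sites (median -0.28, error 0.61). The rule thus says little there. Centring on other-site contacts of all named baits moved the other-site median after OHT from -0.21 to -0.04. It moved the difference between systems from -0.28 to -0.54. At PCGF2 sites a pseudocount 10 times larger gave -0.53 after OHT and -0.63 in PRC1DEG cells. Centring on other-site contacts gave -0.44 and -0.96, and centring on those of Hoxb1 itself, chosen after seeing the data, gave -0.40 and -0.72. Counts by threshold moved by construction. A summit score of at least 3 gave, at PCGF2 sites, 8 calls in untreated cells, 6 with OHT, 5 for Control and 2 for PRC1DEG, and at other sites 18 both before and after OHT and 5 in Control. A score of at least 10 gave 0 calls in every class and library. A mean score of at least 5 gave 3 calls in untreated cells and 1 in Control at PCGF2 sites, and 7 and 4 at other sites before and after OHT. The median summit score at other sites was 4.75 after OHT and 1.45 in PRC1DEG cells. Asking for a 2-fold fall as well left 1 call after OHT and 4 in PRC1DEG cells at PCGF2 sites, and 0 at other sites. Of 20 named contacts, 3 moved after OHT under centring and 1 in PRC1DEG cells, and 1 in PRC1DEG cells (near Cbx8) under the larger pseudocount. No paired analysis was possible because each value already merges its group's 3 replicates, so leaving out a replicate could not be done either. Depth limits contacts with few reads, such as those near Sp6 and Cbx8.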
